A study of Homo sapiens with 3 samples.

Results

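p53 is a transcription factor that responds to DNA damage and other stress by raising genes for cell cycle arrest, repair and metabolic adjustment. Its own protein is kept low by MDM2, a ubiquitin ligase whose gene p53 itself turns on, and by the related protein MDM4, so the pathway carries its brakes among its targets. C4-2 is a castration-resistant prostate adenocarcinoma line derived from LNCaP, a lineage generally described as keeping functional p53.

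The genes described here are 9 p53 pathway genes, taken by symbol from a list and matched to the deposited Ensembl identifiers through GENCODE. They are 9 of 58302 genes in the count files: MDM2, MDM4, PPM1D, CDKN1A, RRM2B, SESN1, SESN2, TP53INP1 and ZMAT3. All 9 had at least 10 reads in every library, as did 14153 of 19708 protein-coding genes. The gene for p53 itself was not analysed here. RNA came from C4-2 cells labelled as adenocarcinoma and wild type, with no treatment named, in 3 libraries that form 1 group. The series also asked about neuroendocrine-like cells and loss of neuropilin-2. Neither was analysed here, so conditions are not compared, and every level is that of 1 line with no treatment named. The labels do not say whether the replicates were separate cultures, so the spread between them may be technical.

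The libraries held 47513470 to 51200272 reads assigned to genes, and 21039 genes had at least 10 reads in each. Of 9 markers of luminal prostate epithelium 9 were detected (summed TPM 3482.99 to 3504.16 over the libraries, led by KLK3, FOLH1 and HOXB13). Of 3 basal markers KRT14 alone was detected, and KRT5 and TP63 had 0 reads. Of 5 neuroendocrine markers CHGA, SYP, INSM1 and NCAM1 were detected, at means of 2.53, 2.29, 0.495 and 0.418 TPM, and CHGB had 4, 6 and 14 reads. The summed TPM of the 5 markers was 5.22 to 6.61 over the libraries. COL1A1, VWF and PDGFRB were the 3 of 9 fibroblast and endothelial markers detected, and COL1A2 had 0 reads. Of 5 blood and immune markers 0 reached 10 reads in every library, with CD3E and HBB at 0 throughout. TPM is the read count divided by exon length and scaled to the same total in every library, and it is the scale on which genes are compared with each other below. CPM is the count scaled by library size alone, used here to compare 1 gene between libraries.

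The binding element of p53 is built from a pair of 10-base units, each with a 4-base core. The sequences around the members were searched for matches to it, and binding was not measured. In a window of 2500 bases on each side of the annotated gene start, a full element (2 units at most 1 base apart, both cores intact, at most 2 mismatches in the 12 flanking bases) was found for CDKN1A, RRM2B and ZMAT3. That is 3 of 9 members (33.3%), against 850 of 19695 protein-coding genes (4.32%). The members were chosen as p53 pathway genes, so this contrast is a description and not a test. The element of CDKN1A overlapped the gene start as annotated in the count files. The other 2 lay 2072 bases (ZMAT3) and 2259 bases (RRM2B) downstream of the gene start. The RefSeq promoter window of CDKN1A lies further downstream, at chr6:36678464-36678763, so the place of its element depends on the start used. The matches of CDKN1A and ZMAT3 are shown as the full elements of members, on the plus strand of GRCh38, with the cores in capitals.
CDKN1A, chr6:36676449-36676468: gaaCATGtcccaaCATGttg
ZMAT3, chr3:179070188-179070207: aggCATGtctggaCTTGttt
The CDKN1A match had 2 flank mismatches and the ZMAT3 match had 0. At most 1 mismatch left RRM2B and ZMAT3 (0.868% of protein-coding genes held such a match). A window of 1000 bases on each side of the start in the count files left CDKN1A alone (1.56%). No match says only that these letters, under this rule, are not in the window.

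Single 10-base units with the core intact and at most 1 flank mismatch were found in promoter windows of MDM2 and SESN1, both of which have internal promoters. RefSeq promoter windows (250 bases before to 50 after a transcript start, GRCh38.p14) were held for 7 of the 9 members, and 2 of these 7 genes (28.6%), MDM2 and SESN1, had a window with such a unit. Over all genes with a window the share was 37.3%. Counted by window, some of which overlap, it was 6 of 13 member windows (46.2%) and 32.6% of all windows. The upstream windows of MDM2 held 1 unit, at position 30 or 25 from their transcript starts. The internal window of MDM2 held 2 units, at positions -94 and -46 from the transcript start, which 6.79% of all windows matched or exceeded. In SESN1 the unit at position -49 had 0 mismatches. Both windows are given on the strand of the gene, with the cores in capitals, because they hold the units described here; the SESN1 window lies outside the stretch searched for full elements.
MDM2 internal promoter, chr12:68808767-68809066, plus strand: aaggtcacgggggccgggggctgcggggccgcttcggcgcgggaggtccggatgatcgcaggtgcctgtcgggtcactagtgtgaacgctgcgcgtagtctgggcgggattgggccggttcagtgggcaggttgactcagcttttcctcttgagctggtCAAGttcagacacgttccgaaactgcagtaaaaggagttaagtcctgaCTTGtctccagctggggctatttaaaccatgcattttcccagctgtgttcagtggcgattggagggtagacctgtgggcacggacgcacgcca
SESN1 internal promoter, chr6:109008939-109009238, minus strand: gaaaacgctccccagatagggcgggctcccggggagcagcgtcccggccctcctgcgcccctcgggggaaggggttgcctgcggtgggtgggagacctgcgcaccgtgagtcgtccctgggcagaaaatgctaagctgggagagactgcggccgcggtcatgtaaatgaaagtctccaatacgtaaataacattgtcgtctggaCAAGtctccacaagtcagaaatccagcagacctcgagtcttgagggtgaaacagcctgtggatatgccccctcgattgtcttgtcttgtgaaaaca
The deposited counts sum all exons of a gene, so transcripts from the internal and the upstream promoters were not separated. RRM2B and TP53INP1 had no window in the RefSeq table.

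CDKN1A stood above the other members. It encodes p21, the inhibitor of cyclin-dependent kinases through which p53 halts the cell cycle. It had 5334, 4843 and 5273 reads in libraries 1, 2 and 3, or 104, 103 and 104 TPM. The 3 values lay within about 1 TPM of each other, with a mean of 103.6 ± 0.532 TPM (SD, n = 3), above 93.4% of protein-coding genes. This was 3.05-fold the mean of MDM2, the next member, and no library of MDM2 reached any library of CDKN1A. In CPM, the scale used to compare libraries, CDKN1A had 104.3, 100.8 and 106.5 in libraries 1, 2 and 3. CDKN1A lies on the plus strand of chromosome 6 (36676460 to 36687339) and shares no exon base with another gene.

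MDM2 and MDM4, the pair of inhibitors that bind p53, came next, and their ranges overlapped. MDM2, the ubiquitin ligase, had 7388, 7383 and 7256 reads, or 33.2, 36.1 and 32.8 TPM. MDM4, its paralog without effective ligase activity of its own, had 5935, 6191 and 5512 reads, or 32.1, 36.5 and 29.99 TPM. MDM2 was higher in libraries 1 and 3 and MDM4 in library 2. MDM2 averaged 34.01 ± 1.84 TPM and MDM4 32.9 ± 3.33 TPM (SD, n = 3 each), higher than 78.6% and 77.97% of protein-coding genes. MDM2 minus MDM4 was 0.05 ± 0.07 on the log2(TPM + 0.1) scale (exact sign-flip permutation test, two-sided, n = 3 libraries, p = 0.5, adjusted p = 0.5 over 6 pairs). With the Ensembl canonical transcript as length, which is 7490 bases for MDM2 against 13269 merged exon bases, the difference was 0.74 and all 3 libraries had MDM2 higher (exact p = 0.25). The merged exons of MDM2 share 9.22% of their bases with other genes. The largest overlap, 785 bases, is with an antisense long non-coding gene that had 0 reads. A further 439 bases overlap a processed pseudogene on the same strand, also with 0 reads. The carboxypeptidase gene CPM on the opposite strand, which had 16 to 22 reads, overlaps 133 bases.

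PPM1D encodes the phosphatase WIP1, a p53 target that removes activating phosphates from p53 and from the DNA damage kinases. It had 1604, 1467 and 1476 reads, or 18.9, 18.9 and 17.5 TPM, with library 3 the lowest. Its mean was 18.5 ± 0.801 TPM (SD, n = 3), higher than 66.7% of protein-coding genes. Of the same phosphatase family, PPM1G averaged 164 ± 2.74 TPM, PPM1A 22.4 ± 0.779 TPM and PPM1B 10.6 ± 1.005 TPM, so that PPM1D lay between PPM1A and PPM1B. PPM1D was below PPM1A in 3 of 3 libraries. The difference of PPM1D minus PPM1A was -0.28 ± 0.03 (exact sign-flip p = 0.25, adjusted p = 0.3), and -0.72 on canonical transcript length. With 3 libraries this test cannot go below 0.25.

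**Figure D1:**
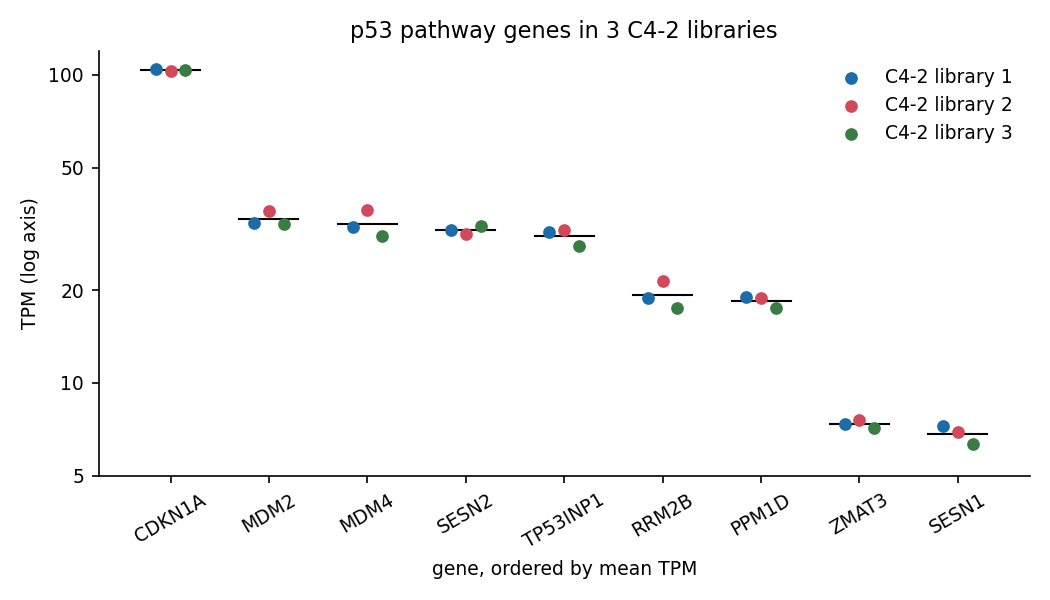
TPM (log axis) of the 9 p53 pathway genes in each of the 3 C4-2 libraries, with points for libraries and a line for the mean, ordered by mean. CDKN1A lies at 103 to 104 TPM, 4 genes between 27.8 and 36.5 TPM, RRM2B and PPM1D between 17.5 and 21.5 TPM, and ZMAT3 and SESN1 between 6.34 and 7.57 TPM.

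The sestrins, which sense leucine and restrain mTORC1 through the GATOR2 complex, differed widely. SESN2 had 1815, 1620 and 1869 reads, or 31.3, 30.5 and 32.4 TPM. SESN1 had 623, 547 and 542 reads, or 7.25, 6.94 and 6.34 TPM, the lowest of the members. Every library of SESN2 was above every library of SESN1, with means of 31.4 ± 0.980 and 6.84 ± 0.461 TPM (SD, n = 3 each). On canonical transcript length the means were 20.7 TPM for SESN2 and 4.10 TPM for SESN1. These lengths are 3462 and 5664 bases, against 3453 and 5121 merged exon bases. The length of SESN2 was thus almost unchanged, and its lower TPM comes from the rescaling over all genes. SESN2 minus SESN1 was 2.18 ± 0.13 log2 units (exact sign-flip p = 0.25, adjusted p = 0.3; 3 of 3 libraries). SESN3, the sestrin induced by FOXO factors, averaged 33.7 ± 3.33 TPM. SESN1 shares 7.09% of its exon bases with an antisense long non-coding gene that had 2, 4 and 6 reads. All 5 GATOR2 genes were detected: SEC13 averaged 60.9 ± 0.734 TPM, SEH1L 30.9 ± 3.09, WDR24 30.6 ± 1.39, WDR59 18.3 ± 0.757 and MIOS 17.8 ± 1.505.

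TP53INP1 encodes a nuclear and autophagy-linked cofactor that raises p53 activity under stress. It had 2939, 2735 and 2630 reads, or 30.8, 31.3 and 27.8 TPM, with library 3 the lowest. Its mean was 29.96 ± 1.93 TPM (SD, n = 3). The paralog TP53INP2, an autophagy factor, averaged 48.6 ± 2.54 TPM and was higher in 3 of 3 libraries. TP53INP1 minus TP53INP2 was -0.70 ± 0.16 log2 units (exact sign-flip p = 0.25, adjusted p = 0.3).

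RRM2B and ZMAT3 were lower. RRM2B encodes p53R2, a small subunit of ribonucleotide reductase that supplies deoxynucleotides for repair and for mitochondrial DNA outside S phase. It had 1757, 1837 and 1625 reads, or 18.9, 21.5 and 17.5 TPM, with library 2 the highest, and a mean of 19.3 ± 2.02 TPM (SD, n = 3). RRM2, the small subunit of S phase, averaged 63.3 ± 8.12 TPM and the large subunit gene RRM1 123 ± 2.93 TPM. RRM2B minus RRM2 was -1.71 ± 0.07 log2 units (exact sign-flip p = 0.25, adjusted p = 0.3; 3 of 3 libraries). Other genes overlap 20.2% of the exon bases of RRM2, and on unshared exon length the difference was -2.03.

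ZMAT3 encodes a zinc finger protein that binds RNA and acts on splicing and stability. It had 1193, 1124 and 1151 reads, or 7.37, 7.57 and 7.15 TPM, with no library apart from the others. Its mean was 7.36 ± 0.210 TPM (SD, n = 3), higher than 53.2% of protein-coding genes. Each library of ZMAT3 was above the same library of SESN1, but the ranges of the 2 genes overlapped. On unshared exon length the means of the 2 genes were 7.03 TPM for both.

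p21 was also set against p27, the other widely expressed inhibitor of its family. CDKN1B, the gene of p27, averaged 67.2 ± 3.92 TPM. CDKN1A minus CDKN1B was 0.63 ± 0.09 log2 units (exact sign-flip p = 0.25, adjusted p = 0.3), with p21 above p27 in 3 of 3 libraries. The third inhibitor, CDKN1C, averaged 6.40 ± 0.239 TPM.

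From highest to lowest, the members spanned 15.1-fold between the means of CDKN1A and SESN1. Of the 8 neighbouring pairs in that order, 3 had ranges that did not overlap: CDKN1A over MDM2, TP53INP1 over RRM2B, and PPM1D over ZMAT3. The ranges of MDM2 and MDM4 overlapped, as did those of MDM4 and SESN2, SESN2 and TP53INP1, RRM2B and PPM1D, and ZMAT3 and SESN1. MDM2, at 32.8 to 36.1 TPM, lay above SESN2, at 30.5 to 32.4 TPM, and above TP53INP1, at 27.8 to 31.3 TPM, in every library. With canonical transcript lengths the order of the genes was unchanged and 7 of 8 neighbouring pairs did not overlap, with CDKN1A 2.48-fold MDM2. The median level of the 9 members was 4.91 log2(TPM + 0.1) units, beside 2.46 over all 19708 protein-coding genes and 3.995 over the 14153 protein-coding genes with at least 10 reads in every library.

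By level over the 3 libraries, the protein-coding genes nearest to MDM2 were ERMP1 (33.9 ± 1.83 TPM) and IST1 (33.97 ± 1.55 TPM), at distances of 0.0131 and 0.0209 in log2(TPM + 0.1). Those nearest to CDKN1A were TRRAP (103.7 ± 0.468 TPM) and GOLM1 (103.4 ± 0.960 TPM), at 0.0189 and 0.0266. With 3 libraries of 1 line this is a likeness of level.

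Between the libraries the members differed by little. The coefficient of variation of TMM-scaled CPM ran between 0.334% (ZMAT3) and 7.95% (RRM2B), with a median of 4.27%. The median over the 8526 genes with a mean of 500 to 7500 reads was 4.70%. A chi-square test of whether the 3 counts followed library size, with Benjamini-Hochberg adjustment over 21039 genes, called 6 of 9 members at an adjusted p under 0.05, against 46.1% of all genes tested. Among counts of 1 to 20 reads, 78.4% were even, as when both mates of a fragment are counted, and the statistic was therefore also divided by 2. After that division, 2 of 9 members were called, against 17.6% of all genes tested. These were MDM4 (adjusted p = 2.06e-06) and RRM2B (adjusted p = 0.0304), and without library 2 neither was called, while without library 3 MDM4 alone was. With the undivided statistic and all libraries, the 6 called were MDM2, MDM4, CDKN1A, RRM2B, SESN2 and TP53INP1. With that statistic, TP53INP1 was the 1 member called without library 2, and MDM2, MDM4 and RRM2B were the 3 called without library 3. The shares over all genes tested were not matched for read number, and the chi-square test finds smaller differences in genes with more reads.

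**Figure D2:**
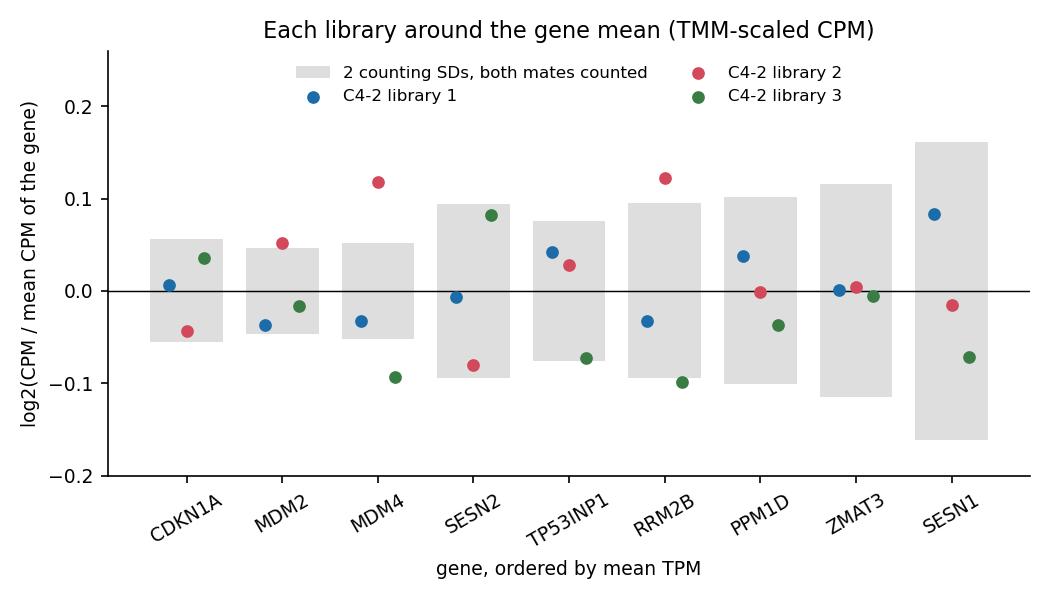
Log2 ratio of each library's TMM-scaled CPM to the mean of the gene, for the 9 p53 pathway genes. The upper edge of the grey bar is 2 counting SDs above the mean when both mates of a fragment are counted. The lower edge mirrors it on the log axis, slightly nearer 0 than 2 SDs below the mean in CPM. MDM4 and RRM2B in library 2 lie above the bar, at 0.12 each, as does MDM2 at 0.05. MDM4 in library 3 lies below it, at -0.09. RRM2B in library 3, at -0.10, lies just below the drawn edge but within 2 counting SDs in CPM. The 3 libraries of ZMAT3 lie within 0.01 of the mean.

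The 2 members called were those most raised in library 2. MDM4 had 116, 129 and 111 CPM in libraries 1, 2 and 3, and library 2 exceeded the mean of the others by 0.18 on the log2 CPM scale. RRM2B had 34.4, 38.2 and 32.8 CPM, and library 2 exceeded the others by 0.19. SESN2 went the other way, with 35.5, 33.7 and 37.7 CPM and library 2 lower by a log2 difference of -0.12, and CDKN1A likewise at -0.06. The log2 difference was 0.08 for MDM2, 0.04 for TP53INP1, 0.01 for ZMAT3, 0.00 for PPM1D and -0.02 for SESN1.

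Exon GC content moved with these differences across all genes, and only in part among the members. The members lower in library 2 by the most, SESN2 and CDKN1A, had exon GC of 59.5% and 57.8%, and the other 7 members had 38.6% (RRM2B) to 45.0% (PPM1D). The order of these 7 was not that of GC: ZMAT3, at 39.95% GC, had 0.01 and TP53INP1, at 39.6%, had 0.04, below the 0.18 of MDM4 at 41.96%. Over all 21029 tested genes with a GC value, the Spearman rho between exon GC and the excess of library 2 was -0.25. Over the 9926 of them with a mean of at least 500 reads it was -0.56. Both are descriptions across genes that share the same libraries. The median excess was 0.08 in the 2482 genes of lowest GC and -0.08 in the 2482 of highest GC. The part of GC content in the calls of MDM4 and RRM2B was not tested.

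**Figure D3:**
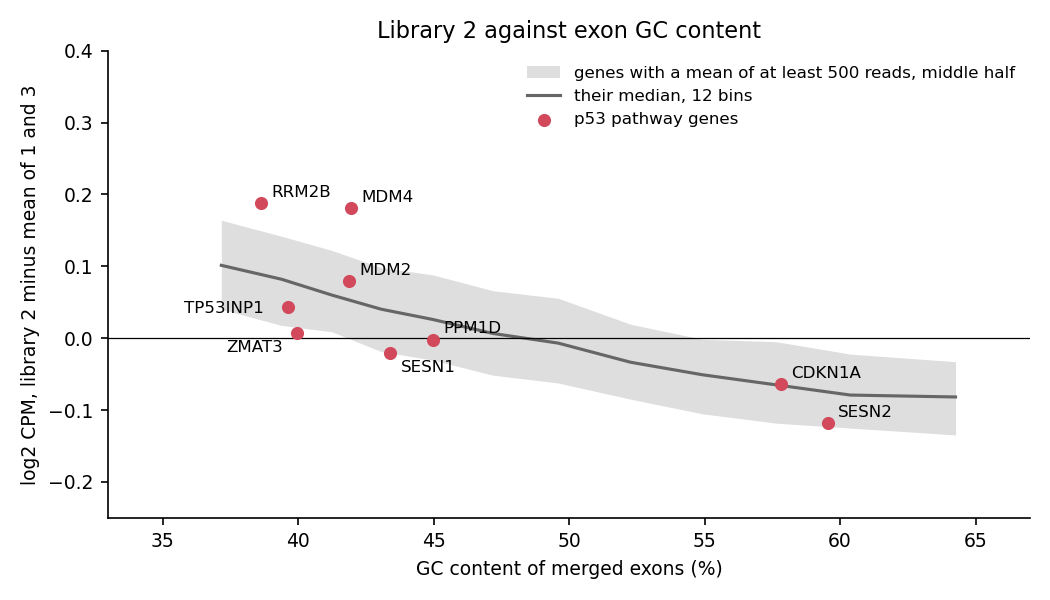
Log2 CPM of library 2 minus the mean of libraries 1 and 3 (vertical) against GC content of merged exons in percent (horizontal). The line and grey band give the median and the middle of the distribution (25th to 75th percentile) of genes with at least 500 reads; RRM2B and MDM4 lie above the band, at 0.19 and 0.18, ZMAT3 lies below it, at 0.01, and SESN2 lies at -0.12.

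Most of the other p53 targets on the lists were detected. Of 50 other protein-coding targets, listed with earlier results of these libraries known, 47 were detected and 46 reached 1 TPM. Of all 19708 protein-coding genes, 14153 were detected and 12366 reached 1 TPM. The median of the 50 targets was 16.8 TPM, beside 29.96 TPM for the 9 members. It was 5.43 TPM for all protein-coding genes and 15.9 TPM for the detected ones, so the targets lay near the level of detected genes. By the variation test 25 of the 47 detected targets were called, against 46.1% of all genes tested. With the statistic divided by 2, 15 of the 47 were called, against 17.6%. The shares were again not matched for read number.

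Arrest genes were all detected, 7 of 7. CCNG1, a cyclin that recruits a phosphatase to MDM2, averaged 83.3 ± 7.31 TPM, the antiproliferative gene BTG2 43.8 ± 2.75, E2F7, a repressor of cell cycle genes, 25.9 ± 1.17 and GADD45A 16.9 ± 0.321. Of 15 apoptosis targets 14 were detected, led by the death receptor gene TNFRSF10B at 103.7 ± 3.71 TPM, the desmosomal gene PERP at 68.8 ± 6.48, TRIAP1, whose product restrains apoptosis, at 61.4 ± 4.33 and the pore-forming BAX at 46.9 ± 4.43. BAX had 1966, 1732 and 2241 reads and was called as variable with the statistic divided by 2 (chi-square test, adjusted p = 2.71e-05). The remaining one, TP53AIP1, named after its values were seen, had 8, 6 and 0 reads.

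The 3 repair targets lay between 21.4 and 41.1 TPM. POLH, the translesion polymerase, averaged 41.1 ± 3.02 TPM, and the damage recognition genes DDB2 and XPC averaged 24.9 ± 0.936 and 21.4 ± 0.295. Other genes overlap 30.4% of the exon bases of XPC. All 7 targets of metabolism and autophagy were detected, led by ALDH4A1 (41.1% of exon bases overlapped) at 35.2 ± 0.916 TPM, the ceramidase gene ACER2 at 19.2 ± 2.52, the AMPK subunit gene PRKAB1 at 13.1 ± 0.898 and the lysosomal gene DRAM1 at 11.5 ± 1.48.

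The highest of the 50 targets was GDF15, a secreted factor of the TGF-beta family, at 322.9 ± 4.85 TPM. It was followed in the signalling list by NINJ1, a mediator of membrane rupture, at 117 ± 4.81 TPM, PHLDA3, an inhibitor of AKT, at 27.6 ± 3.12 and SUSD6 at 19.5 ± 0.648. Of these 10 genes 9 were detected, and EDA2R, named after its values were seen, had 8, 0 and 0 reads. Among 8 further targets 7 were detected, with CMBL at 100.05 ± 7.74 TPM, FAM210B at 94.5 ± 6.55, the small GTPase gene RAP2B at 50.7 ± 1.82 and RPS27L at 16.8 ± 1.74.

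**Figure D4:**
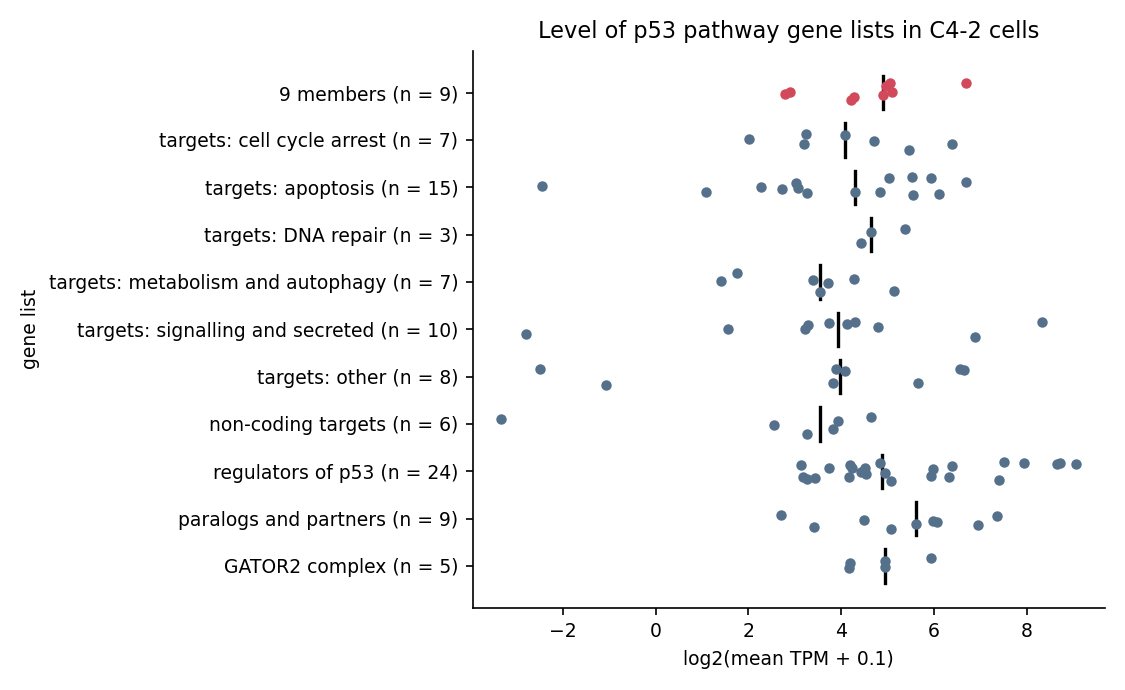
Level of each gene as log2(mean TPM + 0.1) in the p53 pathway lists, with 1 point per gene and a line at the list median. The 9 members lie between 2.79 and 6.70, and the points below -2 are genes with few or no reads.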

How the data were processed

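RNA-seq counts of 3 C4-2 libraries were used. Per the labels' protocols, total RNA was depleted of ribosomal RNA (770 ng input) and built into directional libraries. Per the file headers, the deposited values are raw gene counts made with featureCounts 1.6.3 on Ensembl release 90 (GRCh38) with default options: strand was ignored, reads were counted one by one and not as pairs, and reads on several genes or places were dropped. Per the submitters' processing notes, reads were aligned with STAR 2.7.0f. Each file also gives the exon length of a gene, found equal to its merged exons for 58302 of 58302 genes.

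Names came from GENCODE release 44 by identifier (57532 of 58302 matched). TPM was computed over all genes, and log2 values used a pseudocount of 0.1. TMM factors came from edgeR 4.0.16 and size factors for an alternative from DESeq2 1.42.0, in R 4.3.3. Each gene with at least 10 reads in every library was tested for homogeneity by chi-square with Benjamini-Hochberg adjustment, which was tested on simulated data. Apart from the genes set to change, the simulated counts held counting noise alone. They do not show how the test behaves with other variation between libraries. Gene pairs were compared by an exact sign-flip permutation test. No counts of other samples were used. Other computation used Python 3.11.15, scipy 1.17.1, numpy 2.4.6, pandas 2.3.3 and matplotlib 3.10.9. A count of 0 allows up to 3 reads, 0.0631 CPM in the smallest library, for counting error only, or 6 reads if both mates of a fragment are counted.

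The members and gene lists were chosen with earlier results of these data known. Named genes were the members, the 4 highest of each other list (all of lists of 5 or fewer), genes with 0 reads, genes overlapping a member and the nearest genes by level; TP53INP2 and PPM1A were named as partners in the gene pairs, and SESN3, PPM1B and CDKN1C, outside this rule, after their values were seen. Coordinates are those of the count files; sequences are from hg38 and RefSeq (GRCh38.p14). Canonical transcript lengths and the search for single 10-base units were added after the data were seen. TP53COR1 was listed but matched no row. From the lists, 1 target and 1 luminal marker are not reported here.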

Additional observations from a re-analysis of the deposited data

How the results depend on the processing

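No paired analysis was possible because the 3 libraries form 1 group. The number of members called as variable, 6, was 6, 5 and 5 with DESeq2 size factors, total reads or no filter on low counts, and 2 with the statistic divided by 2. It was 1 to 6 when 1 library was left out (1 without library 2, 3 without library 3), and 0 to 2 when 1 library was left out with the divided statistic (2, 0 and 1 without libraries 1, 2 and 3). The 0, without library 2, came from the chi-square test, where 1 member had an unadjusted p under 0.05. The median level, 4.91 log2 units, was 5.51 over nuclear protein-coding genes, 4.33 on canonical transcript length and 5.16 as log2 CPM, settings that change the denominator or the length. Of 8 neighbouring pairs, 3 did not overlap, against 7 on canonical length and 4 to 5 when 1 library was left out, where fewer values have to be apart. The order of the means was not the same in every setting. SESN1 came just above ZMAT3 on unshared exon length, and TP53INP1 came above SESN2 without library 3. Without library 2, SESN2 came above MDM4 and PPM1D above RRM2B. The element search gave 1 member in the narrower window. The 6 gene pairs kept their direction in all 9 alternatives each. MDM2 minus MDM4 ranged between 0.02 and 0.74, and with no length scaling TP53INP1 minus TP53INP2 was -0.27 and PPM1D minus PPM1A -1.51. Depth limits SESN1 most among the members, whose counting SD, if both mates of a fragment are counted, is 5.92% of its mean.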

Other observations

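All 24 regulators of p53 protein on the list were detected at 1 TPM or more, as were 12366 of 19708 protein-coding genes. Their median was 29.4 TPM, beside 15.9 TPM for detected protein-coding genes. The highest were TRIM28, a corepressor that works with MDM2, at 534 ± 5.51 TPM (SD, n = 3), the ribosomal protein genes RPL5 at 424 ± 2.07 and RPL11 at 404 ± 35.6, whose products bind MDM2 under ribosomal stress, and RPL23 at 247 ± 8.80. Other genes overlap 12.7% of the exon bases of RPL5. RPL11 had 13713, 11200 and 14476 reads, with library 2 the lowest. By the variation test 20 of 24 were called, against 46.1% of all genes tested, and 12 with the statistic divided by 2, against 17.6%. These shares were not matched for read number. The chi-square test finds smaller differences in genes with more reads, and TRIM28 had 33005 to 36629.

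Of 6 non-coding p53 targets in the files, 5 were detected: NEAT1 at 24.8 ± 1.48 TPM, LINC-PINT at 15.2 ± 0.452, TP53TG1 at 13.98 ± 1.98, PURPL, an RNA that lowers p53, at 9.54 ± 0.883, and the host gene of miR-34a, MIR34AHG, at 5.79 ± 0.0887, the last named after its values were seen. PANDAR, transcribed away from CDKN1A, had 0 reads in every library. Of its exon bases 86.99% are shared with another gene, and reads on shared bases were dropped by the counting. TP53TG1 shares 32.6% of its exon bases.

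TNFRSF10C, a decoy receptor gene named after its values were seen, had 229, 108 and 278 reads, lower in library 2 by a log2 CPM difference of -1.16 (chi-square test with the statistic divided by 2, adjusted p = 1.54e-06). Its exon GC content was 57.98%, and the part of GC content in this difference was not tested.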
